A study of Mus musculus with 6 samples.

Results

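The glutathione S-transferases examined here were 10 genes of 5 soluble classes and of the membrane-bound family, namely Gsta3 and Gsta4 (alpha), Gstm1 (mu), Gstt1, Gstt2 and Gstt3 (theta), Gstp1 (pi), Gsto1 (omega) and the microsomal Mgst1 and Mgst3. They were selected by symbol from the 23504 genes of the deposited expression table, and they were chosen because Gsta3 and Gstt1 were already known to move in opposite directions in these libraries. The difference between the groups is therefore given for the 10 genes as a description, with no test. All 10 symbols were found in the table, and 9 of them reached the mean of 1 FPKM (fragments scaled by the length of the gene and the size of the library) required for the fit over all genes, with Gsta4 below it.

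RNA was sequenced from bone marrow–derived macrophages (BMMs) of C57BL/6 mice in 3 libraries with DMSO, the solvent, and 3 libraries with DASA-58, a small-molecule activator of the glycolytic enzyme pyruvate kinase M2 (PKM2). By the study's methods the cells came from male mice aged 6 to 8 weeks, were grown with M-CSF and were collected after 3 days of treatment. RANKL, the cytokine that drives BMMs toward osteoclasts, was given with DASA-58. The study's results describe RANKL for both groups, the methods name it only for the DASA-58 cells, and the methods also write DASA-48 where the labels write DASA-58, with no concentration for this experiment. The 8 osteoclast markers described below summed to 741 to 796 FPKM per DMSO library and 431 to 448 FPKM per DASA-58 library. Whether the DMSO cells received RANKL was not tested. The study's methods give 3 replicates for each group, and the legend that covers these data calls its replicates independent, but whether these were separate mice or cultures is not said, so an error or p-value measures only the spread between these libraries, which may be technical. The depth recovered from the FPKM steps lay between 18191560 and 18968556 fragments per library. A gene at 0 had no counted fragment in a library, which leaves an expected count there of up to 3 (counting error only).

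Glutathione S-transferases join the thiol of glutathione to electrophilic compounds, which are then exported and trimmed to mercapturates. The soluble enzymes fall into classes by sequence, and genes of 1 class often lie side by side in the genome. The microsomal enzymes belong to a separate membrane-bound family that includes the synthases of leukotriene C4 and prostaglandin E. Many of these genes are known targets of the transcription factor NRF2, which binds antioxidant response elements, and macrophages use glutathione to handle oxidants and lipid peroxidation products.

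Because some transferase promoters are known to carry such elements, the promoters of the members were searched for the letters TGACNNNGC, the core of the antioxidant response element, and TGANTCA, a site of the AP-1 factors, on both strands. RefSeq (build GRCm38.p6) gave 300 bases, from 250 before to 50 after the start site, for 8 of the 10 members. The sequences of Gsta3 and Gstt1 are printed because these genes differed most and in opposite directions, and those of Mgst1 and Gstp1 because they held the other matches. Capitals mark the match, and each sequence runs 5′ to 3′ on the strand of its gene.
Gsta3, chr1:21240335-21240634 (+): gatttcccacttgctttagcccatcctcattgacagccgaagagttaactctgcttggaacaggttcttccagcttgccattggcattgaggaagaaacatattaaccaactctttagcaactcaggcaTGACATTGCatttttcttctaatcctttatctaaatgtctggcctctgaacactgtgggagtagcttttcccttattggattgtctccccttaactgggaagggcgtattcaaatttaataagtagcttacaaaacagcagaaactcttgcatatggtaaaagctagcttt
Mgst1, chr6:138140277-138140576 (+): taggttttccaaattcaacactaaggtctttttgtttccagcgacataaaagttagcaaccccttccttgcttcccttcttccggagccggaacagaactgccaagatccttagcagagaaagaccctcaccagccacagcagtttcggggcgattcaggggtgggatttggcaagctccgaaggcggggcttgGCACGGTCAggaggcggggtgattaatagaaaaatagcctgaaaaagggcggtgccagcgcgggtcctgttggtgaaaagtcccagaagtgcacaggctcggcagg
Gstp1, chr19:4037863-4038162 (-): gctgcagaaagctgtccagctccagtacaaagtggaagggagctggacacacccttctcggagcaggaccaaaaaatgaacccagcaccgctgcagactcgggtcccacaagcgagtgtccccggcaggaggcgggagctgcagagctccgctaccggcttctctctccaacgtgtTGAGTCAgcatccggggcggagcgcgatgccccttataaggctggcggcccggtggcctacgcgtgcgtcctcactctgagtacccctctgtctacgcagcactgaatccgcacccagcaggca
Gstt1, chr10:75797682-75797981 (-): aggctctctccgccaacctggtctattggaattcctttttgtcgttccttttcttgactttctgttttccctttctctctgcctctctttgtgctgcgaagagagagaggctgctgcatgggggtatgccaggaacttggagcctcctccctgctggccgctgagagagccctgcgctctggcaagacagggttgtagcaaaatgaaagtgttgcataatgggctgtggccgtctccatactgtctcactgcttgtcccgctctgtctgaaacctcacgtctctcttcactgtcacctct
The antioxidant response element core began at position -121 from the start site in Gsta3, on the strand of the gene. In the window of the first Mgst1 start site its first base was at position -56, and the match lay on the opposite strand. The AP-1 letters began at position -74 in Gstp1 and read the same site on both strands. This site is followed by gc, so it differs from the first motif in the letter after TGA alone. Looser forms of the antioxidant response element were not searched. Neither motif occurred in the window of the other Mgst1 start site or in the windows of Gstt1, Gstt3, Gstm1, Gsto1 or Mgst3. Among all 32851 promoters of the same length, 12.4% held the first motif and 7.81% the second, so such letters are common and a match describes the window only.

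Among the members Gsta3 had the highest ratio of DASA-58 to DMSO, and Gstt1 the lowest of those in the fit. Gsta3 encodes an alpha class enzyme known in mice for conjugating the reactive epoxide of aflatoxin. The gene lies on chromosome 1 at 21240589 to 21265661 on the plus strand in GRCm38 (GENCODE release M21, as are the other gene positions given). It stood at 8.14, 8.84 and 8.34 FPKM in DMSO replicates 1, 2 and 3 and at 16.1, 16.1 and 17.0 FPKM in the DASA-58 replicates. All libraries with DASA-58 were above all libraries with DMSO, and the spread within each group was small beside the gap. The mean was 8.44 ± 0.359 FPKM (SD, n = 3) under DMSO and 16.4 ± 0.540 FPKM (SD, n = 3) under DASA-58, which is 194% of the DMSO mean. On the scale of log2(FPKM + 1) the fold change was 0.88 (standard error 0.044), and it rested on 649 to 724 fragments per DMSO library and 1270 to 1404 per DASA-58 library.

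Gsta4, the alpha class enzyme best known for conjugating the lipid peroxidation product 4-hydroxynonenal, was close to absent. Its values were 0, 0.377 and 0.043 FPKM under DMSO and 0, 0.043 and 0.208 FPKM under DASA-58, from at most 9 fragments in a library. The groups overlapped, and a difference was not detectable at this depth.

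Gstm1 encodes an abundant mu class enzyme and lies on chromosome 3 at 108012255 to 108017973 on the minus strand. It was measured at 62.6, 65.2 and 60.3 FPKM under DMSO and at 88.3, 88.7 and 85.4 FPKM under DASA-58, with no overlap. The means were 62.7 ± 2.43 and 87.5 ± 1.79 FPKM (SD, n = 3 each), and the DASA-58 mean was 139% of the DMSO mean (log2 fold change 0.47, standard error 0.035). Of the 50-base windows of its exons, 18.9% also occur in other genes, chiefly Gstm2-ps1 and Gstm3, and how the counting treated such reads is not given in the sources used here.

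The microsomal enzymes differed from each other. Mgst1, an enzyme of the endoplasmic reticulum and the outer mitochondrial membrane that conjugates and also reduces lipid hydroperoxides, was at 37.3, 38.5 and 39.9 FPKM under DMSO and at 55.0, 55.1 and 54.0 FPKM under DASA-58. Every DASA-58 library was above every DMSO library. The DASA-58 mean of 54.7 ± 0.590 FPKM (SD, n = 3) was 142% of the DMSO mean of 38.6 ± 1.31 FPKM (SD, n = 3), for a log2 difference of 0.49 (standard error 0.033).

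Mgst3, a membrane-bound relative with peroxidase activity, was at 29.2, 33.6 and 30.0 FPKM under DMSO and at 28.3, 27.1 and 27.5 FPKM under DASA-58. The DASA-58 libraries lay just below the DMSO libraries, and the gap between the closest libraries was smaller than the spread within DMSO. The means were 31.0 ± 2.34 and 27.6 ± 0.637 FPKM (SD, n = 3 each), for a log2 difference of -0.16 (standard error 0.052). Without DMSO replicate 2, the highest library, the difference was -0.10.

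**Figure D1:**
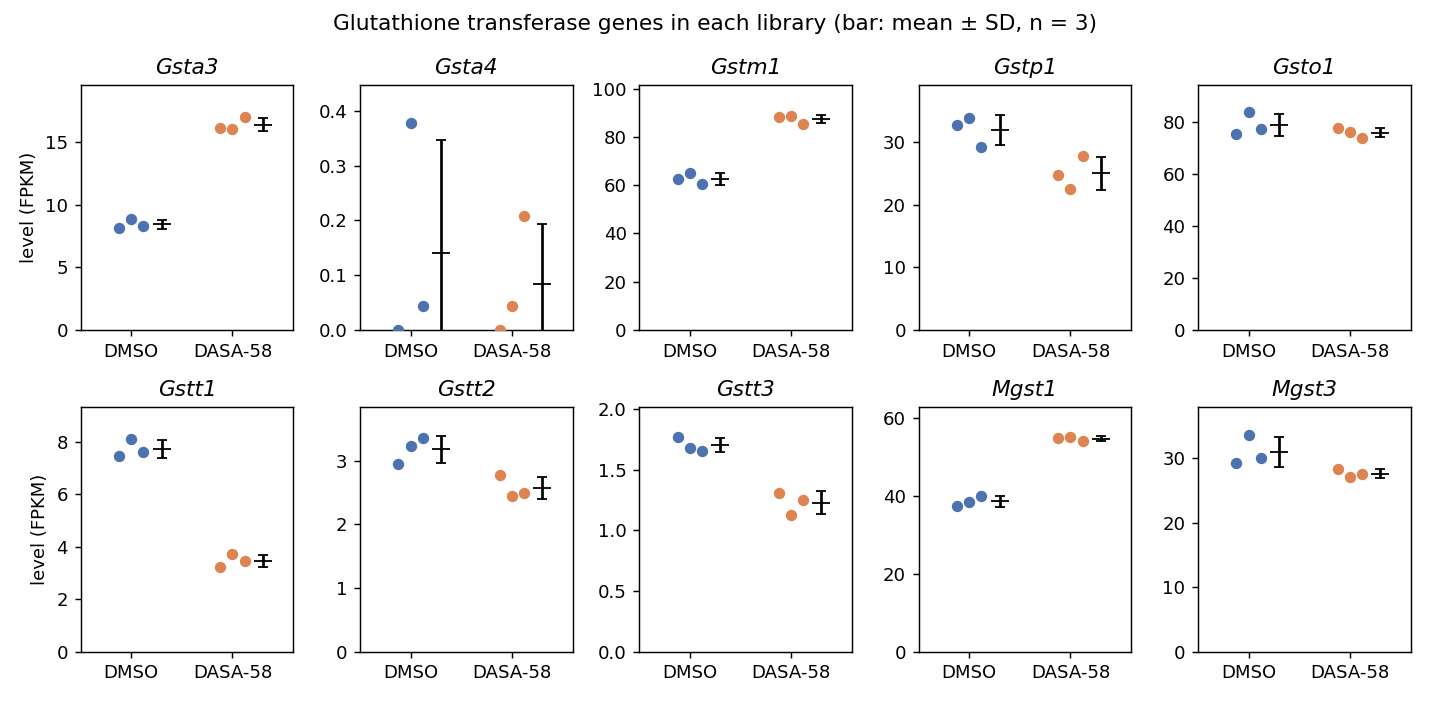
FPKM of each of the 10 members in the 3 DMSO and 3 DASA-58 libraries, 1 panel per gene with its own axis from 0, where points are libraries and the line and bar are the mean ± SD. Gsta3, Gstm1 and Mgst1 sit higher with DASA-58 without overlap, Gstt1, Gstt2, Gstt3, Gstp1 and Mgst3 sit lower without overlap, and Gsto1 and Gsta4 overlap.

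The 3 theta class members were lower with DASA-58, Gstt1 by much more than Gstt2 and Gstt3. The theta class enzymes are the transferases most distant from the other soluble classes in sequence and act on small halogenated compounds and sulfate esters. Gstt1, the best known of them for conjugating dichloromethane, lies on chromosome 10 at 75783813 to 75798584 on the minus strand. It was at 7.45, 8.09 and 7.62 FPKM in the DMSO replicates and at 3.23, 3.71 and 3.45 FPKM in the DASA-58 replicates. The groups were far apart, with 209 to 233 fragments per DMSO library and 93 to 103 per DASA-58 library. The mean was 7.72 ± 0.329 FPKM under DMSO and 3.46 ± 0.237 FPKM under DASA-58 (SD, n = 3 each), which is 44.9% of the DMSO mean. The log2 fold change was -0.97 (standard error 0.056) on the scale of log2(FPKM + 1), and the log2 ratio of the means, which needs no pseudocount, was -1.16.

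Gstt3, at 75774115 to 75781414 on the same strand, was the lowest of the expressed members. It was at 1.77, 1.68 and 1.66 FPKM under DMSO and at 1.31, 1.13 and 1.25 FPKM under DASA-58. The DASA-58 mean was 72.2% of the DMSO mean (log2 fold change -0.28, standard error 0.071) and the libraries did not overlap. Its exons share 524 bases with Gm20441 on the same strand, so reads in that stretch cannot be told apart.

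Gstt2, at 75831114 to 75837424 and known for acting on sulfate esters, was at 2.95, 3.23 and 3.36 FPKM under DMSO and at 2.77, 2.45 and 2.50 FPKM under DASA-58. Its DASA-58 mean was 80.9% of the DMSO mean (log2 fold change -0.23, standard error 0.065). The highest DASA-58 library lay close under the lowest DMSO library. The remaining theta class gene, Gstt4, lies between Gstt1 and Gstt2 and was at 0.716, 0.322 and 0.777 FPKM under DMSO and at 0.537, 0.056 and 0.533 FPKM under DASA-58. Its groups overlapped, and it was below the filter and not tested. The sum of Gstt1, Gstt2 and Gstt3 was 12.6 ± 0.413 FPKM under DMSO and 7.27 ± 0.062 FPKM under DASA-58 (SD, n = 3 each).

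Gstp1 and Gsto1, which lie apart on chromosome 19, are abundant soluble enzymes of single-gene or small classes. Gstp1, the pi class enzyme that also binds the stress kinase JNK, was at 32.7, 33.8 and 29.2 FPKM under DMSO and at 24.7, 22.5 and 27.8 FPKM under DASA-58. The groups did not overlap, but the spread within each was the widest among the members that differed. The means were 31.9 ± 2.44 and 25.0 ± 2.65 FPKM (SD, n = 3 each), 78.4% of DMSO, with a log2 fold change of -0.34 (standard error 0.080). In the GENCODE model of 1548 bases 33.7% of its exon windows also occur in Gstp2 or a pseudogene. The deposited values gave whole fragments with 757 bases instead, for which this share is not known, and Gstp2 itself was listed at 0.205 FPKM or less in each library.

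Gsto1, an omega class enzyme that reduces dehydroascorbate and mixed disulfides rather than conjugating, was at 75.3, 83.7 and 77.4 FPKM under DMSO and at 77.6, 76.4 and 74.0 FPKM under DASA-58. The groups overlapped. The means of 78.8 ± 4.35 and 76.0 ± 1.83 FPKM (SD, n = 3 each) differed by less than the spread within DMSO (log2 fold change -0.05, standard error 0.042, and between -0.08 and -0.01 with 1 library left out).

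Of the 9 members in the fit, 3 were higher and 5 lower without overlap between the groups, as were 33.4% of all 10965 genes tested in either direction. Since the members were chosen with this contrast known, nothing is read from this count. The median log2 fold change was -0.16 over the 9 members and -0.03 over all genes tested, of which the middle 90% lay between -0.25 and 0.20.

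**Figure D2:**
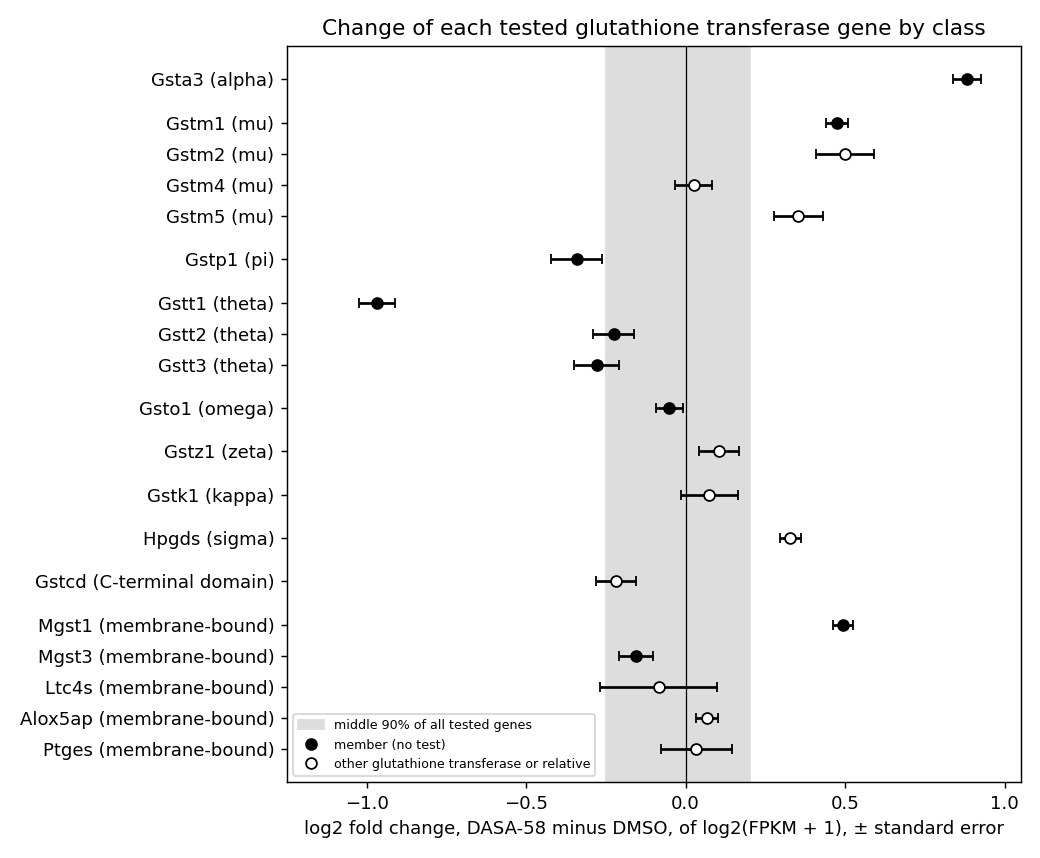
Log2 fold change of log2(FPKM + 1), DASA-58 minus DMSO, for the 9 members in the fit (filled) and the 10 other glutathione transferase genes and relatives tested (open), ordered by class, with bars of ± 1 standard error and a grey band for the middle 90% of all genes tested. Gsta3 at 0.88 and Gstt1 at -0.97 lie at the ends, and the theta, pi and omega members are all at or below -0.05.

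Levels in FPKM, which are per length, ordered the members differently in the groups. How far reads shared with other genes lower the values of Gstm1 and Gstp1 was not tested, so their places in the order hold for the deposited values only. With DMSO the order was Gsto1, Gstm1, Mgst1, Gstp1, Mgst3, Gsta3, Gstt1, Gstt2, Gstt3 and Gsta4. Neighbours in this order did not overlap in their libraries, except Gstp1 and Mgst3. With DASA-58 Gstm1 stood above Gsto1, and Mgst3 and Gstp1 overlapped again. Gsta3 and Gstt1 were near each other with DMSO, where the Gsta3 mean was 1.09 times the Gstt1 mean, whereas with DASA-58 it was 4.74 times as high.

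The summed level of the 10 members was 258, 277 and 258 FPKM under DMSO and 297, 293 and 293 FPKM under DASA-58. The sum was thus higher in every DASA-58 library, at 295 ± 2.42 against 264 ± 11.1 FPKM (SD, n = 3 each). Gstm1 made up 23.4% to 24.3% of this sum with DMSO and 29.1% to 30.3% with DASA-58, Mgst1 13.9% to 15.5% and then 18.4% to 18.8%. The share of Gsto1 was 29.3% to 30.2% with DMSO and 25.2% to 26.1% with DASA-58, and that of the theta members 4.69% to 4.90% and 2.46% to 2.48%.

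The members whose class lies in a gene cluster were set beside the other genes within 100 kb. On chromosome 10 the tested genes beside the theta members were Cabin1, Ddt, Mif, Smarcb1 and Chchd10. Mif, which encodes a cytokine with tautomerase activity, fell from 332 ± 16.4 to 282 ± 3.58 FPKM (SD, n = 3 each), for a log2 difference of -0.23 (adjusted p = 0.0071, limma with Benjamini-Hochberg adjustment over all genes tested). Chchd10, a mitochondrial protein gene, fell with a log2 fold change of -0.33 (adjusted p = 0.039, limma, Benjamini-Hochberg). Ddt, a relative of Mif next to Gstt3, had a log2 fold change of -0.55 from 8 to 30 fragments per library and did not pass (adjusted p = 0.059, limma, Benjamini-Hochberg). Cabin1 at -0.13 and Smarcb1 at -0.10 did not pass either (adjusted p = 0.054 and 0.19, limma, Benjamini-Hochberg). Mmp11 and Derl3, also within 100 kb, were below the filter and not tested, and their means were higher with DASA-58. Mmp11 was at 0.383 ± 0.031 and 0.620 ± 0.217 FPKM (SD, n = 3 each) without overlap, from 18 to 44 fragments per library. Derl3 was at 0.073 ± 0.057 and 0.161 ± 0.045 FPKM (SD, n = 3 each) with overlap, from 1 to 8 fragments.

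On chromosome 3 the mu class genes around Gstm1 did not all move alike. Gstm2 rose from 3.57, 4.55 and 3.47 FPKM to 6.20, 5.37 and 5.97 FPKM, and Gstm5 rose from 1.45, 1.78 and 1.80 FPKM to 2.29, 2.58 and 2.39 FPKM. Their log2 fold changes were 0.50 and 0.35 (adjusted p = 0.013 and 0.027, limma, Benjamini-Hochberg). The call of Gstm2 was lost under 4 of 16 alternative settings, among them leaving out DMSO replicate 1 or DASA-58 replicate 1. That of Gstm5 was lost under 6 of 16, among them leaving out DMSO replicate 1 or any 1 DASA-58 library. Gstm4, the nearest tested neighbour of Gstm1, was at 7.03 ± 0.463 and 7.17 ± 0.396 FPKM (SD, n = 3 each), for a log2 difference of 0.03 that did not pass (adjusted p = 0.82, limma, Benjamini-Hochberg). Whether the changes of Gstm4 and its neighbours differ was not tested. Outside the family Ampd2, an AMP deaminase gene, fell with a log2 fold change of -0.20 (adjusted p = 0.016, limma, Benjamini-Hochberg), and Gnai3 was at 0.06 (adjusted p = 0.22). Gstm3, Gstm6 and Gstm7 were at or below 0.198 FPKM in every library and were not tested.

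**Figure D3:**
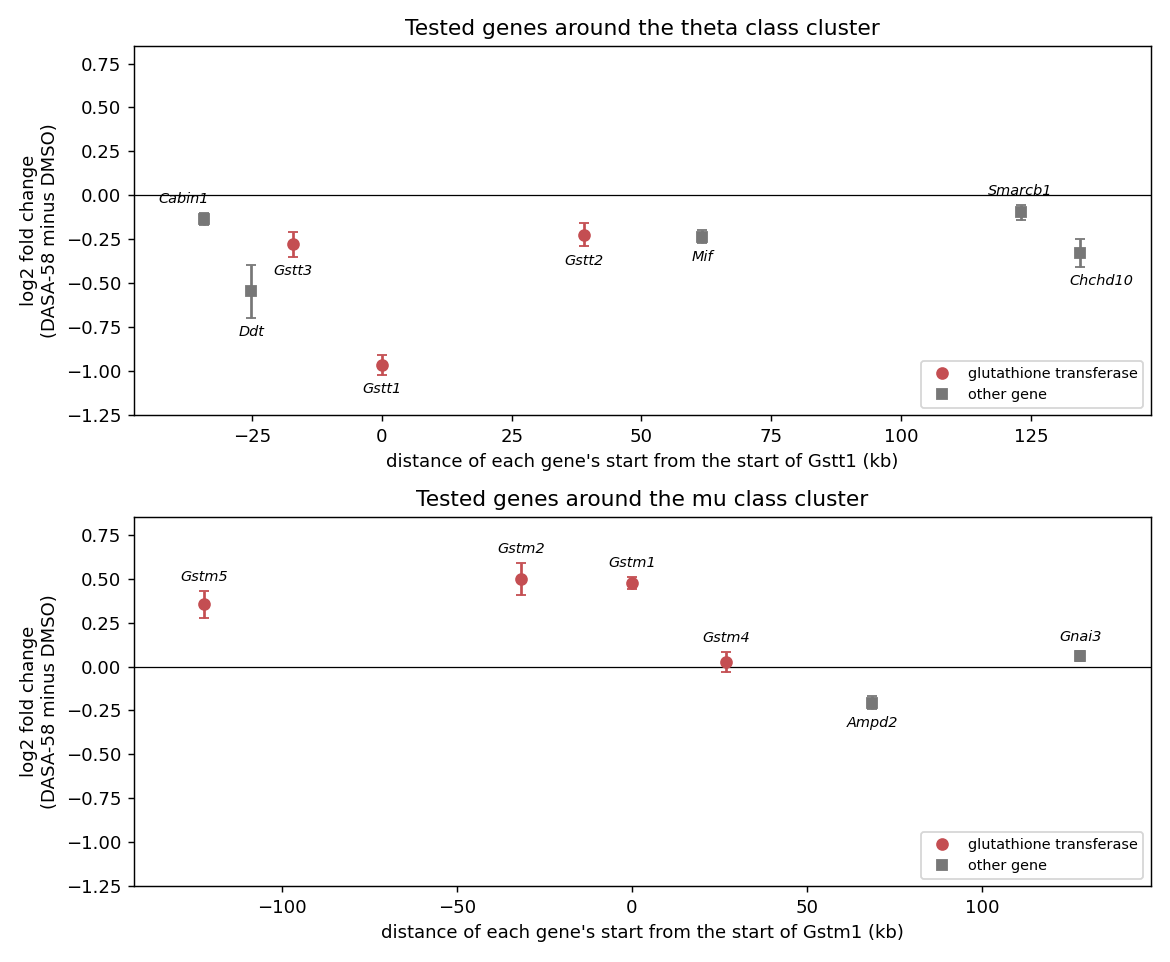
Log2 fold change of log2(FPKM + 1), DASA-58 minus DMSO, of tested genes within 100 kb of the theta and mu clusters against the distance of each gene's start from that of Gstt1 or Gstm1 in kb, with glutathione transferases as red circles, other genes as grey squares and bars of ± 1 standard error. All 8 tested genes of the theta panel lie below 0, from -0.97 for Gstt1 to -0.10 for Smarcb1. Among them Gstt1, Gstt2 and Gstt3 are members, and of the others only Mif and Chchd10 passed. The median over all genes tested was itself below 0, at -0.03, so nothing is read from this count. Untested genes are not shown, among them Gstt4, lower on average with DASA-58, and Mmp11 and Derl3, higher on average. In the mu panel Gstm1, Gstm2 and Gstm5 lie between 0.35 and 0.50 while Gstm4 is at 0.03.

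Patterns close to those of the extreme members were sought as the smallest Euclidean distance between log2(FPKM + 1) values, each centred on the gene's own mean, over the 6 libraries. The 3 genes closest to Gsta3 were Fpr1, Clec4n and Ednrb, at distances of 0.12, 0.15 and 0.16. Fpr1 encodes a formyl peptide receptor and was at 12.3 ± 0.440 FPKM under DMSO and 22.8 ± 0.678 FPKM under DASA-58 (SD, n = 3 each). The 3 genes closest to Gstt1 were Car2, Ocstamp and Acp5, at distances of 0.12, 0.12 and 0.16. Car2 encodes a carbonic anhydrase, Ocstamp a membrane protein of osteoclast fusion and Acp5 the tartrate-resistant acid phosphatase TRAP. With DASA-58 Car2 stood at 49.4% of its DMSO mean and Ocstamp at 47.6%, beside 44.9% for Gstt1. The likeness is a description over 6 libraries of 2 groups, and any gene with a group difference of similar size scores as close.

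Genes of glutathione metabolism and regulators of transferase genes, together called glutathione genes here, were tested outside the 10 members in the fit over all genes. Of 77 such genes present, 56 were tested, and in limma with Benjamini-Hochberg adjustment 15 of these rose and 4 fell, beside 4.24% and 7.28%, together 11.5%, over all genes tested. Without variance shrinkage 7 rose and 1 fell, and leaving out DMSO replicate 1 or 3 or DASA-58 replicate 1 or 2 left 2 that fell. These lists were also drawn up with earlier results of the same libraries known. In the list of other transferases and relatives, 3 of 10 tested genes rose and 0 fell in limma, with 1 lower (Gstcd) at an unadjusted p under 0.05. Beside Gstm2 and Gstm5 this was Hpgds, the sigma class enzyme that makes prostaglandin D2, which rose from 20.1, 19.5 and 19.7 FPKM to 25.9, 24.5 and 25.0 FPKM (log2 fold change 0.33, adjusted p = 0.0012, limma, Benjamini-Hochberg).

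The other tested relatives did not pass. Gstcd, a protein with a transferase-like domain, had a log2 fold change of -0.22 (adjusted p = 0.068, limma, Benjamini-Hochberg) without overlap between the groups. Gstk1, a mitochondrial and peroxisomal enzyme, was at 0.07 and Gstz1, which also acts in tyrosine breakdown, at 0.10. Alox5ap, the partner of 5-lipoxygenase, was at 0.07, Ltc4s at -0.08 and Ptges at 0.03. Mgst2, the remaining microsomal enzyme, was at 0.765 ± 0.132 FPKM under DMSO and 1.09 ± 0.159 FPKM under DASA-58 (SD, n = 3 each) and stayed below the filter.

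Among genes for synthesis and breakdown of glutathione 2 of 7 tested rose and 0 fell in limma, also at an unadjusted p under 0.05. Both encode the enzyme of the first and rate-limiting step, glutamate–cysteine ligase. Gclm, its modifier subunit, rose from 39.7, 37.9 and 38.7 FPKM to 68.4, 64.9 and 65.6 FPKM (log2 fold change 0.76, adjusted p = 3.1e-05, limma, Benjamini-Hochberg). Gclc, the catalytic subunit, rose from 14.4 ± 0.786 to 18.7 ± 0.792 FPKM (SD, n = 3 each), for a log2 difference of 0.35 (adjusted p = 0.0044, limma, Benjamini-Hochberg). Gss, the second enzyme of the synthesis, was at -0.01, and Slc7a11, the cystine transporter, at 0.04, and neither passed.

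In the list of reduction, peroxidases and glutaredoxins 3 of 11 tested genes rose and 1 fell. Gsr, which reduces oxidized glutathione, rose from 85.1 ± 2.44 to 104 ± 1.32 FPKM, and Prdx6, a peroxiredoxin that uses glutathione, from 38.1 ± 1.30 to 46.5 ± 0.844 FPKM (SD, n = 3 each). Glrx, a glutaredoxin, rose by a log2 fold change of 0.15 (adjusted p = 0.048, limma, Benjamini-Hochberg), a call that was lost under 10 of 17 alternative settings. Gpx1, the abundant cytosolic glutathione peroxidase, fell from 743, 787 and 738 FPKM to 631, 632 and 615 FPKM (log2 fold change -0.27, adjusted p = 0.0017, limma, Benjamini-Hochberg), while Gpx4, which acts on membrane lipid peroxides, was at 0.10 and did not pass (adjusted p = 0.13).

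For export and mercapturate formation 2 of 10 tested genes rose and 2 fell. The conjugate exporters Abcc3 and Abcc1 rose with log2 fold changes of 0.29 and 0.14 (adjusted p = 0.0027 and 0.027, limma, Benjamini-Hochberg). Abcc5, a transporter of the same family, fell by 0.21 on the log2 scale (adjusted p = 0.022, limma, Benjamini-Hochberg). Acy1, the aminoacylase that removes the acetyl group from mercapturates, fell from 7.13, 6.35 and 5.87 FPKM to 4.35, 3.71 and 4.66 FPKM (log2 fold change -0.51, adjusted p = 0.0096, limma, Benjamini-Hochberg). The calls of Abcc1 and Abcc5 were lost under 9 and 7 of 17 alternative settings.

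Of the 7 glyoxalase and other glutathione-dependent detoxification genes tested, 3 rose and 1 fell. Those that rose were Ethe1 and Sqor, enzymes of mitochondrial sulfide oxidation, at 0.33 and 0.26, and Esd, which splits S-formylglutathione, at 0.19. The call of Ethe1 was lost under 7 of 17 alternative settings, with an adjusted p of 0.059 in limma with the replicate block, and that of Esd under 1. Hagh, the second enzyme of the glyoxalase path, fell with a log2 fold change of -0.18 (adjusted p = 0.038, limma, Benjamini-Hochberg), but this call was lost under 12 of 17 alternative settings.

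Among the regulators of transferase genes 2 of 11 tested rose and 0 fell in limma. At an unadjusted p under 0.05 in limma 3 were higher and 1 lower (Ahr). Mafg was among the higher ones, with a log2 fold change of 0.09, and did not pass (adjusted p = 0.11, limma, Benjamini-Hochberg). Sqstm1, the adaptor p62 that binds KEAP1, rose from 357, 349 and 349 FPKM to 399, 409 and 395 FPKM (log2 fold change 0.19, adjusted p = 0.0036, limma, Benjamini-Hochberg). Nfe2l2, the gene of NRF2, rose from 60.3 ± 2.43 to 68.0 ± 1.28 FPKM (SD, n = 3 each), for a log2 difference of 0.17 (adjusted p = 0.022, limma, Benjamini-Hochberg) whose call was lost under 8 of 17 alternative settings. Keap1, the repressor of NRF2, was at -0.07, Bach1, a competitor at the same elements, at 0.03, and Ahr, the aryl hydrocarbon receptor, at -0.19, and none of these passed.

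**Figure D4:**
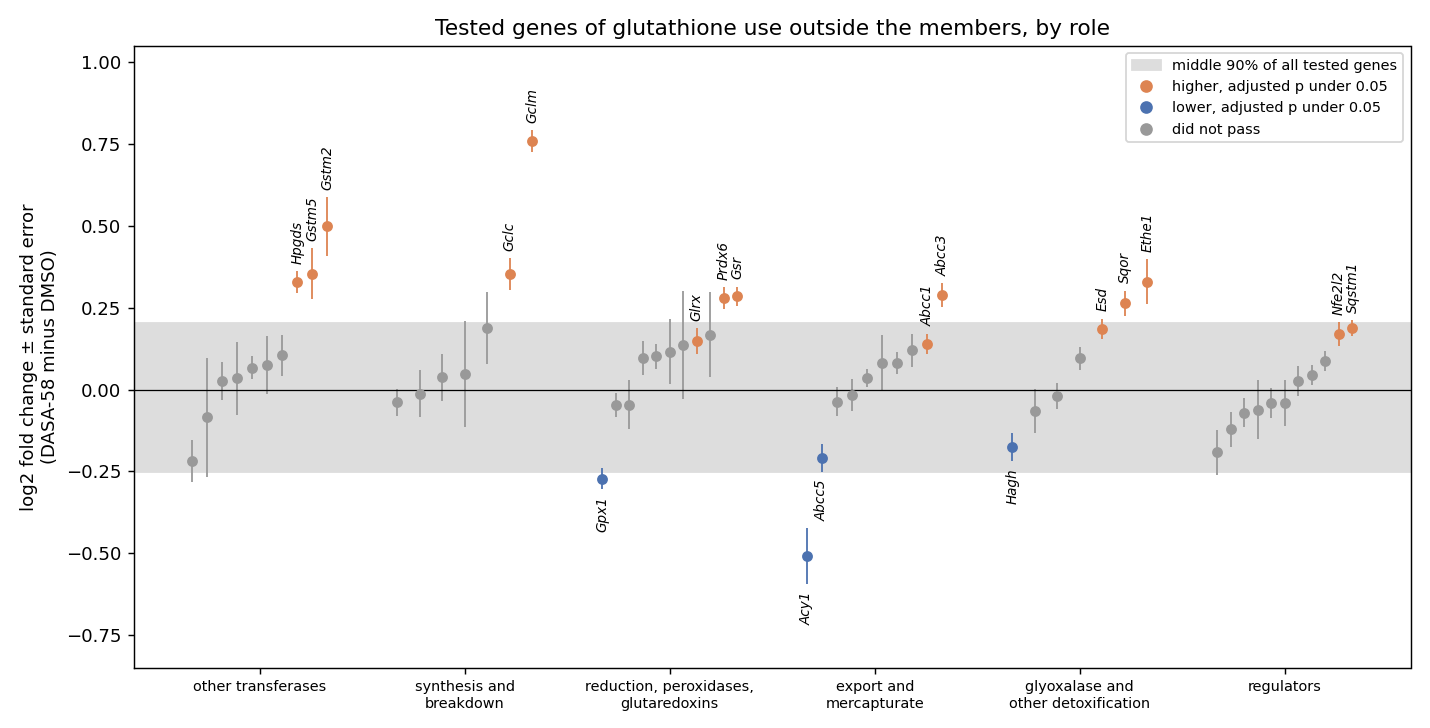
Log2 fold change of log2(FPKM + 1), DASA-58 minus DMSO, for the 56 tested glutathione genes outside the members, regulators of transferase genes included. They are grouped by role on the horizontal axis, with bars of ± 1 standard error. A grey band marks the middle 90% of all genes tested. The 15 genes that rose (orange) include Gclm at 0.76 and the 4 that fell (blue) include Acy1 at -0.51.

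Markers of cell types moved with the groups. Over all genes tested 4.24% rose and 7.28% fell in limma. Of 8 osteoclast markers 7 were tested and all 7 fell, with a summed level of 741 to 796 FPKM per DMSO library and 431 to 448 FPKM per DASA-58 library. Of 8 macrophage markers 4 rose (Adgre1, Cd68, Mertk and Mrc1) and 0 fell in limma, with 0 lower also at an unadjusted p under 0.05. The 8 markers summed to 16359 to 17196 FPKM per DMSO library and 17316 to 19626 FPKM per DASA-58 library. Lyz2 alone made up most of these sums, at 14701 to 15513 and 15447 to 17767 FPKM. Its groups overlapped and it was not called (adjusted p = 0.11, limma, Benjamini-Hochberg). The labelled cell type was therefore visible in its defining markers, such as Csf1r at 322 ± 2.92 FPKM under DMSO (SD, n = 3). Of 7 neutrophil markers 6 were tested and 4 fell (S100a8, S100a9, Camp and Ngp), with sums of 167 to 171 and 130 to 137 FPKM. All 6 were lower without overlap between the groups, and 5 were lower at an unadjusted p under 0.05 in limma. The defining Ly6g was at or below 0.058 FPKM under DMSO and at 0 in all DASA-58 libraries. None of the T cell, B cell and stromal markers tested passed in limma, and 0 were under an unadjusted p of 0.05, with summed levels of 5.34 to 5.94, 1.71 to 2.04 and 31.7 to 34.2 FPKM in the DMSO libraries. These markers numbered 4 in all and had adjusted p values of 0.33 to 0.75. Mast cell and endothelial markers were all below the filter, with summed levels below 1 FPKM, and 0 of 5 erythroid markers were in the table. In such bulk samples fewer cells of a type and less RNA per cell cannot be told apart. The part of the osteoclast, macrophage and neutrophil markers in the differences of the transferases was not tested.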

How the data were processed

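RNA of BMMs was measured in 6 libraries, 3 with DMSO and 3 with DASA-58, which were assigned by the treatment label. The authors deposited FPKM values, normalized to gene length and to the fragments of each library, in 1 table. The submitters' processing notes name HISAT2 2.1.0, HTSeq 0.6.0 and the build mm8. The annotation and the use of strand are not given in the sources used here. The table holds no coordinates, so positions were taken from GENCODE M21 on GRCm38 by Ensembl identifier, which gave symbols for 23455 identifiers and none for 49. With these gene lengths 90.8% of the genes gave whole fragments, within 0.01 fragment, in each library (2e-06 of larger counts). On chromosomes 14 to 19 only 45.5% to 69.5% did, beside at least 98.3% of the genes on each other chromosome. The authors' annotation of chromosomes 14 to 19 is therefore unknown. Elsewhere the values match gene lengths of GRCm38, a build other than the mm8 of the notes, and this conflict was not resolved. Gstp1 and Gsto1, on chromosome 19, were given the shortest length that made their values whole. Intervals and limits from fragments cover counting error only.

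Values were compared as log2(FPKM + 1) with limma 3.58.1 in R 4.3.3 (lmFit, eBayes with a trend), without scaling or a replicate block, for 10965 genes that averaged 1 FPKM or more. Benjamini-Hochberg adjustment covered all of them, and calls were made at an adjusted p under 0.05. At low FPKM the pseudocount of 1 shrinks fold changes. The study's own test of 2 groups was Student's, for which the linear model without variance shrinkage is an alternative. An exact permutation test of 3 against 3 libraries cannot give a p under 0.10 and was not used. Gsta4 was taken from the fit without a filter.

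The members and lists were chosen with earlier results of these data known. The genes named were all members, every tested gene of the other transferases, each called gene of the other glutathione lists, and the 3 genes closest to Gsta3 and to Gstt1. Genes named beyond this rule, namely markers, neighbours of the theta and mu clusters within 100 kb, Gss, Slc7a11, Gpx4, Keap1, Bach1, Ahr, Mafg, Mgst2 and untested transferases, were chosen after their values were seen. The alternatives were pseudocounts of 0.1 and 5, no filter or one of 5 FPKM, 4 scalings between libraries (equal totals, quantiles, the median, trimmed log ratios), no trend or no shrinkage of the variance, the replicate block and each library left out. Promoter sequences came from RefSeq (GRCm38.p6). Further software was matplotlib 3.10.9, numpy 2.4.6, pandas 2.3.3 and Python 3.11.15.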

Additional observations from a re-analysis of the deposited data

How the results depend on the processing

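None of the 9 members in the fit changed direction under the alternatives that gave a value. Pseudocounts moved the members with low levels most. With a pseudocount of 0.1 the log2 fold change was 0.95 for Gsta3, -1.14 for Gstt1 and -0.44 for Gstt3, and with 5 it was 0.67, -0.59 and -0.11, with -0.11 for Gstt2 and 0.45 for Mgst1. Under the other settings it stayed between 0.86 and 0.91 for Gsta3 and between -1.01 and -0.93 for Gstt1. Gstt2 and Gstt3 had no value under the filter of 5 FPKM, and Gsta4 had 1 value only, from the fit with no filter.

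Over all genes tested, 465 were higher and 798 lower. They were 257 and 372 with no filter on low values and 227 and 314 with no variance shrinkage, and the lower genes numbered 515 with no variance trend, 523 by the trimmed mean and 504 by centring on the median. Leaving out 1 library at a time gave 272 to 375 higher and 387 to 603 lower genes. Of the calls 63.2% were lower, but 71.3% after scaling to equal totals, 46.8% by the trimmed mean, 45.8% by centring on the median and 49.5% after quantile normalization. The cause was not tested.

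Among the glutathione genes outside the members, 7 were higher with no variance shrinkage, 1 was lower with no shrinkage and 1 with no filter. Without 1 library 10 to 12 were higher and 2 to 4 lower. Gclm, Gsr, Prdx6, Gpx1, Hpgds, Abcc3, Sqor and Sqstm1 were called under all 17 alternatives. Gstm5 lost its call under 6 of 16, Gstm2 under 4 of 16, Ethe1 under 7 of 17, Acy1 under 2 of 17, and Gclc and Esd under 1 of 17 each.

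Same-numbered libraries had correlations of deviations of -0.02, 0.02 and -0.02, beside -0.05 to 0.06 for libraries with different numbers. No shared effect of the replicate number was visible, and whether same-numbered libraries were prepared together is not given. With the replicate block 378 genes were higher and 579 lower in the whole table, and 14 and 3 among the glutathione genes outside the members, where the calls of Ethe1 and Hagh were lost. Depth limits Gsta4, with at most 9 fragments, and Gstt3, with 79 to 125. Gstt1 also had only 93 to 103 fragments per DASA-58 library. Outside the members Gstm5 had 34 to 60 fragments per library.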
